A study of Mus musculus with 6 samples.

Results

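Carbonic anhydrases and an anion exchanger that works alongside them were followed in C2C12 myotubes with and without *Dj1* knockdown. C2C12 cells are mouse myoblasts that stop dividing and fuse into myotubes in low serum. Both groups received 60 nM siRNA as myoblasts, which was a scramble siRNA in one and an siRNA against *Dj1* (labelled siDJ-1) in the other. Differentiation medium was added 48 h afterwards, and the myotubes were collected for total RNA 4 days later. Each group comprises 3 arrays, and all 6 lay on a single Illumina mouse BeadChip. Each group rests on 1 siRNA, and no untransfected culture is among the arrays. Nothing in the labels says that the replicates were separate cultures, so p-values measure only the spread between these samples, which may be technical.

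The 8 genes described are CAR2, CAR3, CAR4, CAR9, CAR12, CAR13, CAR14 and SLC4A2, written as the array lists them. They were chosen by name from measured differences between these same arrays, so their values are given as a description, without a test. The array holds 13 probes for them among 45281 probes in all, and each probe was kept apart. A probe counted as detected on an array when its detection p, which ranks its signal among negative control beads, was under 0.05. Of the 13 probes, 9 from 6 genes passed the filter of detection on at least 3 arrays, and each of these 9 was detected on all 6. The remaining 4 probes were detected on no array, and they include the only CAR4 probe, both CAR14 probes and 1 of the CAR2 probes.

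Carbonic anhydrases are zinc enzymes that interconvert carbon dioxide and water with bicarbonate and a proton. CAR2, CAR3 and CAR13 act in the cytosol, CAR4 is tethered to the outer face of the plasma membrane by a lipid anchor, and CAR9, CAR12 and CAR14 cross the membrane with the catalytic domain outside the cell. Working muscle makes carbon dioxide, protons and lactate, and carbonic anhydrases on both sides of the sarcolemma are known to ease their removal. SLC4A2 moves bicarbonate out of the cell in exchange for chloride and so acidifies the cytosol.

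The knockdown itself was read from the probe of *Dj1* (symbol Park7), ILMN_2728754. Its signal intensity, as deposited, was 12019.5, 10900.4 and 12251 with scramble siRNA and 5935, 6585.5 and 4234 on the siDJ-1 arrays. The lowest scramble array lay well above the highest knockdown array. After background correction and quantile normalization the log2 fold change was -1.16 (SE, standard error, 0.14), with an adjusted p of 0.00344 from limma, and 3 of 3 knockdown arrays were lower. Over all probes the median signal was 162, 167 and 154 with scramble siRNA and 161, 167 and 152 with siDJ-1. The arrays differed in bead noise, with a median standard error over beads of 11.3, 8.30 and 8.66 for scramble and 7.17, 6.36 and 5.88 for siDJ-1. The number of probes detected was 16985, 17399 and 18179 with scramble siRNA and 18704, 18857 and 18408 with siDJ-1. Every scramble array was noisier and detected fewer probes than any siDJ-1 array, and the part of this in the differences of dim probes was not tested.

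In *Dj1* knockdown myotubes, both transmembrane enzymes that were detected stood higher. The fitted difference was 2.01-fold to 2.52-fold over the 3 CAR9 probes and 2.39-fold for both CAR12 probes. For the dimmer CAR12 probe, ILMN_2891583, the log2 difference of 1.26 shrank to 0.81 without background correction under quantile normalization. Cytosolic enzymes went different ways. CAR13 was 1.24-fold higher, while CAR3 stood at 36.2% and CAR2 at 52.8% of the normalized scramble signal, and these 2 percentages depend strongly on the background correction. SLC4A2 stood at 63.7%. On normalized values, 9 of the 9 detected probes had groups without overlap, 6 of them higher (CAR9, CAR12, CAR13) and 3 lower (CAR2, CAR3, SLC4A2) after knockdown. Groups without overlap were found for 48.5% of all 17890 tested probes, 26.5% higher and 22% lower. The genes were picked on this contrast, so nothing is read from their count. These are bulk samples, and fewer cells with a transcript cannot be told apart from less of it per cell.

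**Figure D1:**
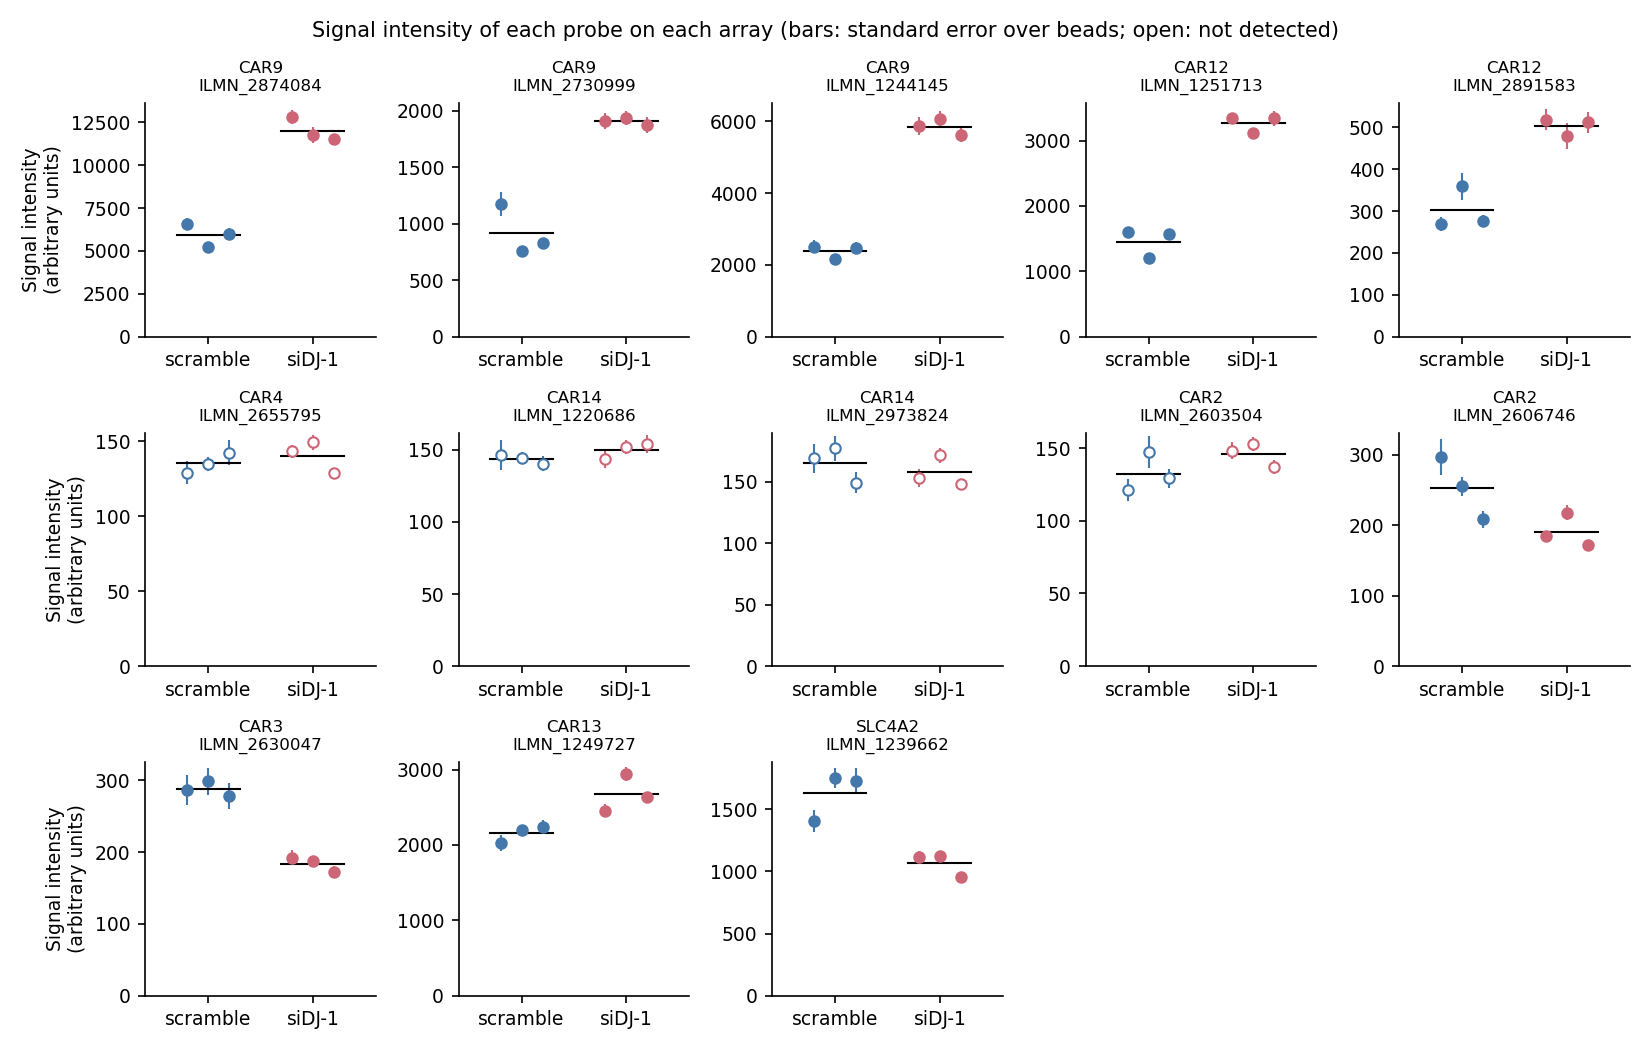
Deposited signal intensity (arbitrary units, not normalized, vertical axis from 0 and scaled separately in each panel) of each of the 13 probes on the 3 scramble (blue) and 3 siDJ-1 (red) arrays, with the standard error over beads as a bar, the group mean as a black line and open circles where the probe was not detected. The 5 probes of CAR9 and CAR12 lie higher on each siDJ-1 array than on any scramble array, SLC4A2 and CAR3 lie lower, and CAR2 ILMN_2606746 overlaps at 208 and 217.

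CAR9 is a tumour-associated enzyme of the cell surface whose gene is a classic target of hypoxia-inducible factor. Its window around the transcription start is shown because each of its probes was higher after knockdown. The window runs from 250 bases before the start to 49 after it on the plus strand, at chr4:43506776-43507075 of GRCm38.p6, with the sequence from RefSeq. Capitals mark the matches to the core letters of the hypoxia response element, which are ACGTG or else GCGTG, and to CAGCTG, an E-box read by myogenic factors, each searched on both strands.
Car9: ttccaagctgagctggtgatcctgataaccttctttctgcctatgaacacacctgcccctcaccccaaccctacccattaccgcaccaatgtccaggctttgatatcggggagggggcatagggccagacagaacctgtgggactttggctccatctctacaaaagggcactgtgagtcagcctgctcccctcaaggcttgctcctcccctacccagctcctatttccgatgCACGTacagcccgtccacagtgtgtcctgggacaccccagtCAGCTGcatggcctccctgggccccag
The window holds ACGTG once, read on the minus strand (CACGT in the printed strand) from 18 bases before the start, and CAGCTG once, from 23 bases after it. Over 32817 promoter windows of the same length, 43.8% hold ACGTG or GCGTG (19.6% and 32.4% taken singly) and 16.3% hold CAGCTG. A match of these letters is a description and does not show that a factor binds.

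The signal of CAR9 probe ILMN_2874084 was 6557, 5227 and 6013 with scramble siRNA and 12791, 11752 and 11504 with siDJ-1. Each knockdown array was brighter than every scramble array, and the gap between the groups was larger than the range within either one. On the normalized log2 scale the mean was 12.51 ± 0.20 (SD, n = 3) in scramble and 13.52 ± 0.14 (SD, n = 3) in knockdown myotubes, a difference of 1.01 (SE 0.14). Probe ILMN_1244145 of the same transcript read 2503, 2159 and 2465 against 5873, 6052 and 5628, with a difference of 1.33 (SE 0.12). Here too the 3 knockdown arrays sat close together, far above the scramble arrays. The third probe, ILMN_2730999, read 1174, 760.3 and 828 against 1909.8, 1935 and 1874, with a difference of 1.24 (SE 0.20). Scramble replicate 1 was the brightest scramble array on each of the 3 probes, and it still lay below the dimmest knockdown array. All 3 probes match 1 RefSeq transcript, so they are repeated readings of it and not independent samples. Their differences span 0.32 on the log2 scale. Over the 16 alternative settings the differences stayed between 0.90 and 1.46 across the 3 probes.

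CAR12, a second transmembrane enzyme with its active site outside the cell, is best known from epithelia. Its start window is shown beside that of CAR9 as the other gene with more than 1 detected probe, each of them higher. It lies on the plus strand at chr9:66713436-66713735 of GRCm38.p6 (RefSeq).
Car12: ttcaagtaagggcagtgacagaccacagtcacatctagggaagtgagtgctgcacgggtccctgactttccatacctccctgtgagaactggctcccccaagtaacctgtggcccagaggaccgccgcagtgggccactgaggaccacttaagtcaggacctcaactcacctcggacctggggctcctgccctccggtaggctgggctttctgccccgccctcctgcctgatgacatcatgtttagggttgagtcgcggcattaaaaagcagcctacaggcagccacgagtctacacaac
None of these motifs was found in these 300 bases on either strand, hence no capitals, which says only that these letters are not in this window. Both windows have a GC content of 58.3%.

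The brighter CAR12 probe, ILMN_1251713, had a signal of 1596, 1197 and 1575 with scramble siRNA and 3339.9, 3109.8 and 3342 on the siDJ-1 arrays. Scramble replicate 2 was the dimmest array, and the groups were far apart. The mean log2 signal was 10.34 ± 0.29 (SD, n = 3) in scramble and 11.60 ± 0.21 (SD, n = 3) in knockdown myotubes, a difference of 1.26 (SE 0.18). Probe ILMN_2891583 lay much closer to background, at 269, 359 and 276 against 518, 478 and 512. On this probe scramble replicate 2 was the brightest scramble array, the reverse of its place on the first probe, and the groups again did not overlap. The difference was 1.26 (SE 0.21) with background correction, and 0.81 without it under quantile normalization. Both CAR12 probes thus gave a higher signal after knockdown, and the size on the dim probe rests on the background subtracted.

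CAR3 is the carbonic anhydrase that slow muscle fibres and fat cells hold in abundance, and its catalytic rate is low for the family. Its probe ILMN_2630047 gave a dim signal in these myotubes, at 287, 299 and 278 with scramble siRNA and 192, 187 and 173 with siDJ-1. The knockdown arrays were all lower, and each group spanned little. The normalized mean log2 signal was 7.23 ± 0.05 (SD, n = 3) in scramble and 5.76 ± 0.17 (SD, n = 3) in knockdown myotubes, a difference of -1.47 (SE 0.12). Without background correction the difference was -0.60 with quantile normalization and -0.59 with a shift to a common 75th percentile. The direction held in these settings while the size did not.

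CAR2 is a fast cytosolic enzyme found in red cells, kidney and osteoclasts. Probe ILMN_2606746 read 297, 255 and 208 with scramble siRNA and 184, 217 and 171 with siDJ-1. The deposited signals overlap, since siDJ-1 replicate 2 lay above scramble replicate 3, while the normalized values do not. The normalized mean log2 signal was 6.80 ± 0.44 (SD, n = 3) in scramble and 5.88 ± 0.29 (SD, n = 3) in knockdown myotubes, a difference of -0.92 (SE 0.25), which shrank to -0.36 without background correction under quantile normalization. The other CAR2 probe, ILMN_2603504, was assigned to the same transcript and lay between 121 and 153 on all 6 arrays, with no detection. The CAR2 difference therefore rests on 1 dim probe of the pair.

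CAR13, a cytosolic enzyme related to CAR2 and CAR3, was clearly detected by ILMN_1249727 at 2026, 2194 and 2241 with scramble siRNA. The siDJ-1 arrays read 2455, 2945 and 2629.6. The groups did not overlap, and the gap between them was narrower than the range within either group. The difference was 0.31 on the log2 scale (SE 0.12), the smallest in size among the 9 detected probes. In the RefSeq annotation of GRCm38.p6, Car13, Car1, Car3 and Car2 follow each other on chromosome 3 with no other gene between them. Within this cluster CAR13 was higher and CAR3 and CAR2 were lower after knockdown. The 1 probe of Car1, which encodes a red cell enzyme, was detected on 0 scramble arrays and 1 siDJ-1 array.

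SLC4A2, also called AE2, is a widely expressed chloride and bicarbonate exchanger. Its probe ILMN_1239662 read 1407, 1752 and 1729.5 with scramble siRNA and 1118, 1126 and 953 with siDJ-1. The groups did not overlap, and the dimmest scramble array was replicate 1. The mean log2 signal was 10.54 ± 0.23 (SD, n = 3) in scramble and 9.89 ± 0.07 (SD, n = 3) in knockdown myotubes, a difference of -0.65 (SE 0.14). It lay between -0.78 and -0.56 over the 16 alternatives. RefSeq gives Slc4a2 a pair of start windows, of which one holds GCGTG at 2 places and the other holds CAGCTG at 1.

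CAR4 and CAR14 are surface enzymes that have been described in muscle membranes. The CAR4 probe ILMN_2655795 lay between 129 and 149 on the 6 arrays. The CAR14 probes lay between 140.4 and 154 (ILMN_1220686) and between 148 and 177 (ILMN_2973824). Scramble and siDJ-1 arrays overlapped on each of these probes, and no fold change is given for signals at background. Their transcripts were not detectable on these arrays, which does not show that they are absent. The start windows of Car4 and Car14 hold ACGTG once each, and the RefSeq windows used here did not include Car2, Car3 or Car13.

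**Figure D2:**
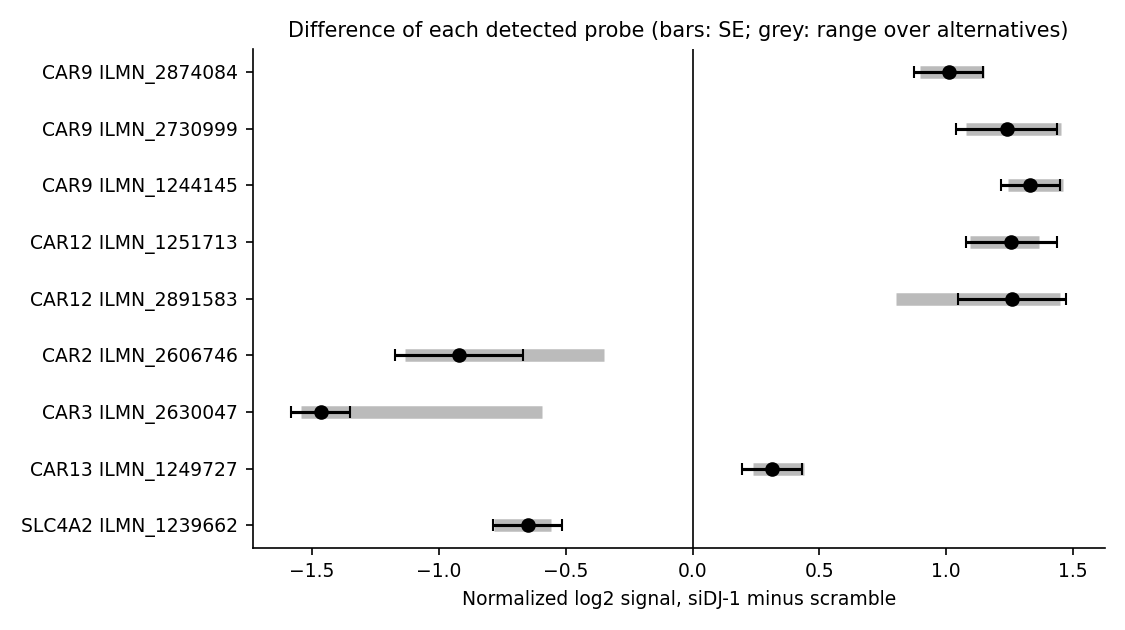
Difference in normalized log2 signal (siDJ-1 minus scramble, 3 arrays each) of the 9 detected probes as black points with the standard error of the fit as bars, over the range of the same value across the alternative settings in grey. No range crosses 0, and the grey ranges of CAR3, CAR2 and CAR12 ILMN_2891583 reach far towards it.

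The probes of other genes whose normalized log2 signal followed CAR9 most closely over the 6 arrays were looked up for ILMN_1244145, the probe with the largest positive difference. They were Srgap2, Usp3, JCAM2, Pygl and Gnao1, with Pearson r between 0.9990 and 0.9997. Pygl, the liver form of glycogen phosphorylase, had the largest difference of these 5 at 1.83 on the log2 scale. For CAR3, with the largest negative difference, the closest were Pmm2, Eif4a1, Tecr, ENSMUSG00000074075 and LOC100047712, with r between 0.995 and 0.999. High r was common, since 13.8% of the tested probes had r over 0.9 with CAR9 and 9.35% with CAR3. The 6 arrays fall into the groups compared, so r describes mostly the difference between groups, and no p is given.

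Usp3, a ubiquitin-specific protease gene, is also the gene next to Car12 on chromosome 9, a coincidence that was noticed after its values were seen. Its 2 probes were higher after knockdown by 1.08 (SE 0.11) and 0.86 (SE 0.14) on the log2 scale, given without a p because the likeness to CAR9 fixes the difference of the first. Aph1b, a gamma-secretase subunit gene on the other side of Car12, was higher by 0.70 (SE 0.14, limma adjusted p = 0.0120). Next to Car9, the tropomyosin gene Tpm2 was lower on ILMN_2482209 by -0.66 and on ILMN_2787172 by -0.58, and the third probe, at -0.12, was not called. Ccdc107, on the other side of Car9, was higher on ILMN_2872552 by 0.36 (SE 0.10, limma adjusted p = 0.0330). Its other probe, ILMN_1235970, at 0.45 (SE 0.19), was not called, and its groups overlapped on normalized values. Cdk5 near Slc4a2 was lower, at -0.79 (SE 0.19, limma adjusted p = 0.0234). The flanking genes, up to 2 on each side of the 8 genes and of Car1 and leaving out the carbonic anhydrases, had 37 probes, of which 22 from 14 genes were tested. At an adjusted p under 0.05, 4 of these were higher and 3 were lower (31.8% called), with a median log2 fold change of -0.02 against 0.05 for all tested probes. Over all tested probes 30.1% were called, 16.5% higher and 13.6% lower. Whether neighbouring genes share a cause of their differences was not tested.

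The other genes of proton and bicarbonate handling were taken as 6 lists, with 138 probes, of which 62 from 36 genes were tested. After knockdown, 11 probes rose and 5 fell at an adjusted p under 0.05 (limma), 46 were not called, and the median log2 fold change was 0.09, against 0.05 for all tested probes. The share called, 25.8%, lies near the 30.1% of all tested probes. The 16 calls came to 10 with no filter on dim probes and to 8, 10 and 10 without siDJ-1 replicate 1, 2 and 3, and the 11 rises came to 6 without scramble replicate 2 and to 5 without any one of the siDJ-1 arrays. The 5 falls came to 3 without siDJ-1 replicate 1.

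Among the other carbonic anhydrases, 4 of 11 probes were tested, and 1 rose. This was ILMN_3132559 of Car5b, a mitochondrial enzyme that supplies bicarbonate for biosynthesis. It read 300.3, 368 and 349 with scramble siRNA and 404, 441 and 388 with siDJ-1, with a log2 fold change of 0.56 (SE 0.16, limma adjusted p = 0.0380). All 3 knockdown arrays were higher. Without background correction the value was 0.35 under quantile normalization and 0.33 under the 75th percentile shift. The other Car5b probes gave 0.43 and 0.22 and were not called, and the call was lost without scramble replicate 2 and without any one of the siDJ-1 arrays. Car11, a relative without catalytic activity, had a log2 fold change of 0.04 (limma adjusted p = 0.817). Car1, Car6, Car7, Car8, Car10 and Car15 passed the filter with no probe, which leaves CAR9, CAR12 and CAR13 with Car5b as the carbonic anhydrases with a detected probe that was higher with groups apart.

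Of the bicarbonate and anion exchangers, 11 of 36 probes were tested, 2 rose and 3 fell. All 3 falls were probes of Slc4a3, the chloride and bicarbonate exchanger AE3 of heart, brain and muscle. Its probe ILMN_2675029 read 3141, 3218 and 2823 with scramble siRNA and 2182, 2439 and 1944 with siDJ-1. The groups were apart, with a log2 fold change of -0.53 (SE 0.09, limma adjusted p = 0.00821), and the call held under all 16 alternatives. The remaining Slc4a3 probes with a call gave -0.57, which was lost without siDJ-1 replicate 1, and -0.49. Slc4a3 thus lay lower beside SLC4A2, the other chloride and bicarbonate exchanger measured here with a clear signal. The rises were in 1 of 3 tested probes of Slc4a8, a sodium-driven exchanger, at 0.85 (SE 0.18, limma adjusted p = 0.0167), and in Slc26a6, an anion exchanger, at 0.85 (SE 0.21, limma adjusted p = 0.0263). Slc26a6 was detected on 2 of 3 scramble arrays, its value was 0.29 without background correction, and its call was lost without any one of the siDJ-1 arrays. The Slc4a8 value was 0.44 without background correction, and its call was lost without siDJ-1 replicate 2 and without siDJ-1 replicate 3.

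Sodium/proton exchangers, which export protons, and their partners had 14 tested probes of 24, of which 3 rose and 0 fell. Slc9a2 (ILMN_1221373) was detected on 3 siDJ-1 arrays and on 0 scramble arrays. It passed the filter only through the siDJ-1 arrays, so its call is not read as a rise and no p is given. The call is still counted among the 3 rises of this list and the 11 over the 6 lists. Its deposited signals overlap, at 179.7, 179.7 and 153 with scramble siRNA and 179.9, 206 and 176 with siDJ-1. A fold on the background-corrected scale is no bound here, since the log2 difference was only 0.17 without background correction under quantile normalization. The remaining tested probe of this gene was not called, and the call was lost under 13 of 15 alternatives, 5 of which leave out an array (any one except scramble replicate 1). Slc9a3r2, a scaffold protein of the exchangers, rose by 0.49 on the log2 scale (SE 0.14, limma adjusted p = 0.0412), a call lost without scramble replicate 1 or 2 and without siDJ-1 replicate 1 or 2. The list's median log2 fold change was 0.19, also with probes detected in 1 group alone set against the lowest detected signal of the other group's arrays.

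Lactate leaves muscle with a proton through the monocarboxylate transporters, which need the chaperone basigin or embigin to reach the membrane. Slc16a1, Slc16a3, Slc16a7 and Slc16a8 had no tested probe. Both probes of the basigin gene Bsg rose, ILMN_1253274 from 179, 194 and 191 on the scramble arrays to 298, 279.6 and 311 on the siDJ-1 arrays. The knockdown arrays all stood higher, by 1.69 on the log2 scale (SE 0.23, limma adjusted p = 0.00459) and, for the other probe ILMN_2647835, by 1.53 (SE 0.25, limma adjusted p = 0.00691). Each Bsg probe was detected on 2 of 3 scramble arrays, so the size is uncertain, and without background correction under the 75th percentile shift it was 0.71 and 0.61. Both calls held under all 15 alternatives that tested these probes. The embigin gene Emb fell, with a log2 fold change of -0.50 (SE 0.11, limma adjusted p = 0.0170) and 3 of 3 knockdown arrays lower. This call was lost without siDJ-1 replicate 1 and without siDJ-1 replicate 2.

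The vacuolar proton pump, which acidifies lysosomes and endosomes, had 30 tested probes of 37, with 3 rises, 1 fall and a median log2 fold change of 0.04. Atp6v0a2, a membrane subunit, fell by 0.80 on the log2 scale on ILMN_2747311 (SE 0.11, limma adjusted p = 0.00514). It read 1340.1, 1376 and 1161 on the scramble arrays against 758, 945 and 654 on the siDJ-1 arrays, and its other probe, at -0.33, was not called. Tcirg1, another form of that subunit, rose on 1 of 4 probes by 0.70 (SE 0.14, limma adjusted p = 0.0139). Both calls held under all 16 alternatives. Atp6v1b2 rose by 0.42 (SE 0.12, limma adjusted p = 0.0395) and Atp6v1g1 by 0.36 (SE 0.09, limma adjusted p = 0.0289), and both calls were lost under several settings, for Atp6v1b2 without any one array other than siDJ-1 replicate 2, and for Atp6v1g1 without any one array other than scramble replicate 1. The pump's brightest probe, for Atp6v1e1, had a log2 fold change of 0.02 (limma adjusted p = 0.866). None of the 19 probes for proton sensors and channels passed the filter.

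**Figure D3:**
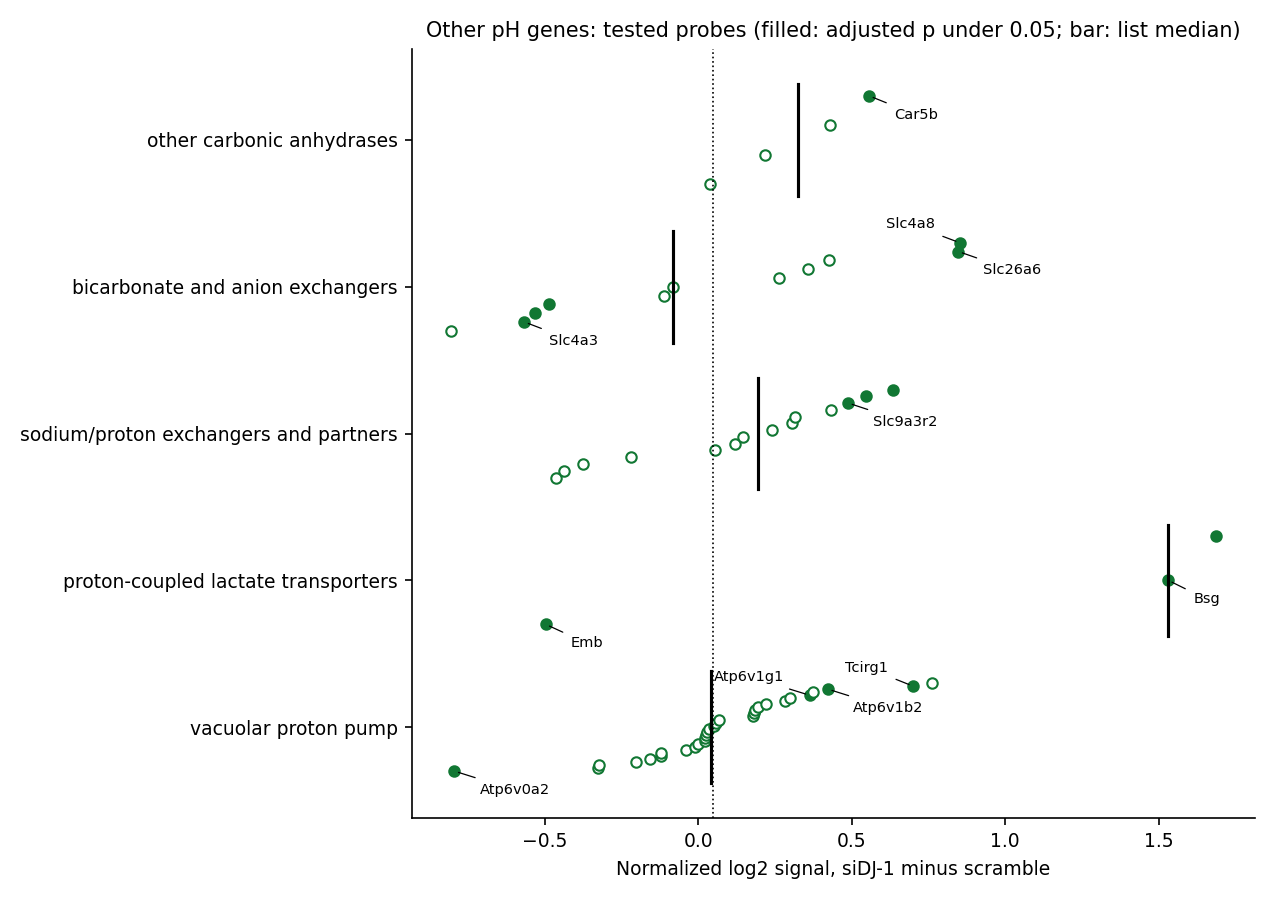
Log2 difference (siDJ-1 minus scramble, 3 arrays each) of the 62 tested probes of other genes of proton and bicarbonate handling, 1 point per probe and 1 row per list, filled where the adjusted p from limma was under 0.05, named where called and measured in both groups, with the list median as a black bar and the median of all tested probes, 0.05, as a dotted line. The Bsg probes stand out at 1.53 and 1.69, and most vacuolar proton pump probes lie near 0.

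The samples are labelled as differentiated myotubes, and markers of myotubes were detected for 12 of 12 genes, among them skeletal actin, Acta1. The summed normalized signal of the myotube list was 252283, 247368 and 243228 with scramble siRNA and 209169, 220288 and 194300 with siDJ-1. It was thus lower on every knockdown array, with 2 of 22 tested probes higher, both labelled for titin, and 9 lower. Of the 9 lower probes, 3 are also labelled for titin, so probes under that name went both ways. Of the proliferating myoblast list, 4 of 6 genes were detected, 0 of 7 probes rose, 2 fell (Myod1 and 1 of the probes of Ccnb1, the most abundant gene of that list), and Pax7 was on no array. Its summed signal was 4426, 4821 and 4307 against 3381, 3879 and 3599, which Myod1 and Ccnb1 dominate. Its median log2 fold change was 0.20, and the 4 tested probes of the proliferation genes Mki67 (0.47 and 0.20) and Top2a (0.25 and 0.23) had positive values without a call, so the list did not move one way.

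Fibroblast markers, which myoblasts also express in part, had 4 of 6 genes detected, and 5 of 6 tested probes fell, with Col3a1 most abundant and with Lum and Thy1 on no array. The summed signal was 24267, 23283 and 23811 with scramble siRNA and 14715, 16693 and 14219 with siDJ-1. CAR3 and CAR2 thus stood lower together with the summed myotube and fibroblast signals, and the part of cell make-up or of the stage of differentiation in their differences was not tested. CAR3 is also a fat cell enzyme and CAR2 an enzyme of osteoclasts and red cells, so lists for those cells were read as well. The adipocyte list had 0 of 6 genes pass the filter, with Adipoq, Cidec, Lep and Plin1 on no array, and its sum was 124, 87.3 and 91.0 against 93.6, 69.5 and 67.4. Blood and osteoclast markers had 2 of 6 genes pass the filter with 0 calls, with Acp5 and Ptprc on no array, and summed to 264, 195 and 169 against 173, 151 and 159.8. Some markers were detected on single arrays. Fabp4 and Ctsk, an osteoclast protease, were detected on scramble replicate 1 alone, where the CAR2 probe was also brightest, the haemoglobin gene Hba-a1 on scramble replicate 2 alone, Retn on siDJ-1 replicate 1 alone, and Cd68 on all 3 siDJ-1 arrays and 1 scramble array. Their part in the CAR2 and CAR3 values was not tested. The endothelial list had 0 of 6 genes pass, with Emcn, Kdr and Tie1 on no array (128, 158 and 96.2 against 133, 107 and 115). The osteoblast list had 3 genes and 4 probes pass with 0 calls, led by Bglap, with Dmp1, Runx2 and Sp7 on no array (305, 288 and 352 against 266, 313 and 269).

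**Figure D4:**
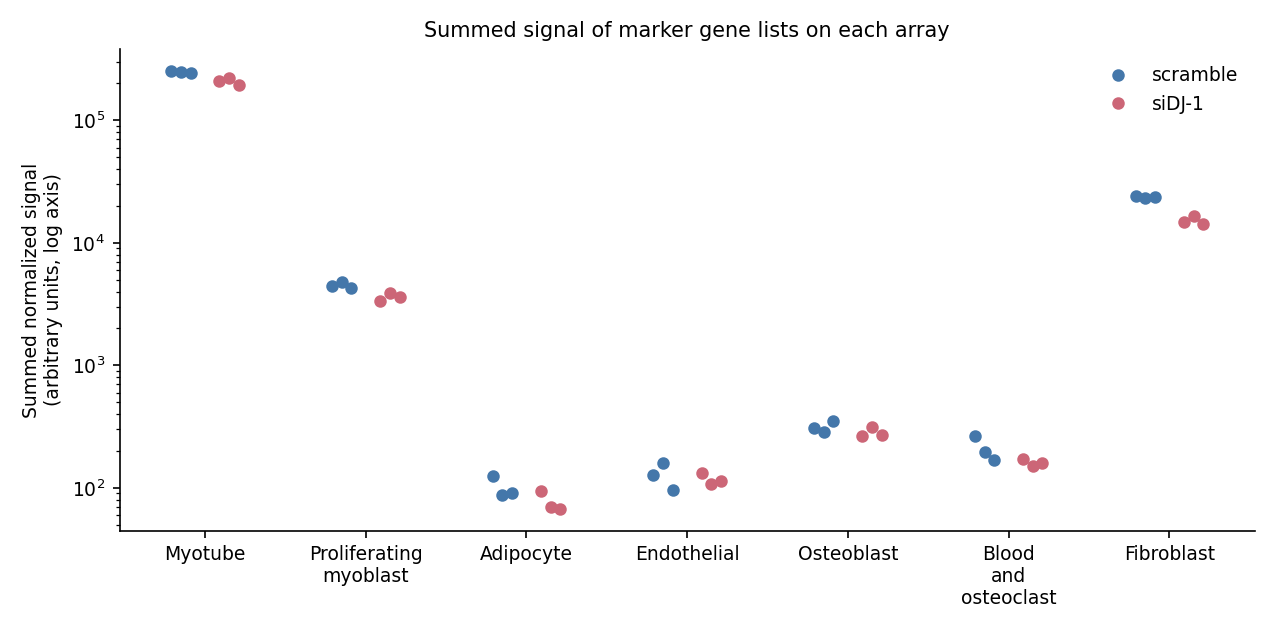
Summed normalized signal (log axis, arbitrary units, offset taken off) of each marker list on the 3 scramble (blue) and 3 siDJ-1 (red) arrays, 1 point per array. The myotube list lies between 194300 and 252283, the adipocyte and endothelial lists lie under 160, and the sums of the myotube, proliferating myoblast and fibroblast lists are lower on every siDJ-1 array than on any scramble array, although the median log2 fold change of the proliferating myoblast list was 0.20.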

How the data were processed

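Total RNA of C2C12 myotubes was labelled and hybridized to an Illumina Mouse WG-6 V2 BeadChip, which the authors scanned and quantified in GenomeStudio. They deposited, without normalization or background subtraction, the mean signal intensity of each probe, its standard error over beads and the bead number. The deposited detection p-value ranks each signal among negative control beads.

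Values were processed in R 4.3.3 with limma 3.58.1. The neqc steps were applied, namely normexp background correction based on the detection p-values (offset 16), quantile normalization and a log2 transform. Of 45281 probes, the 17890 detected (p under 0.05) by 3 or more arrays were fitted with lmFit and eBayes (3 siDJ-1 against 3 scramble arrays), and p was adjusted by Benjamini-Hochberg over all of them (threshold 0.05). The pipeline was tested on simulated data. The 3 arrays per group limit the precision.

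The 8 genes and all lists were chosen with earlier results of these data known, so the 8 genes received no p. Named are every probe of these genes, Park7, up to 4 called probes by size and the brightest tested probe of each list, the 5 probes most correlated with the largest rise and fall, and the top gene of each marker list. Some items that this rule takes are not reported here. Other named probes, flanking genes among them, were picked after their values were seen. Through Entrez number or accession, 32345 probes found a match among the RefSeq genes of GRCm38.p6, and the others kept the name in the file or that of the other probes with the same target. The file names no genome build. Alternatives were no background correction, a 75th percentile shift with and without it, an offset of 50, no filter, a stricter filter, a prior variance trend, array quality weights, an unmoderated t-test, which the paper names for its other measurements and not for the arrays, a replicate block and each array left out.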

Additional observations from a re-analysis of the deposited data

How the results depend on the processing

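The *Dj1* knockdown was called under all 16 alternatives, with log2 fold changes from -1.24 to -1.003 while the largest adjusted p was 0.0183 among the limma fits and 0.0206 for the unmoderated t-test. None of the 9 detected probes of the carbonic anhydrases and SLC4A2 changed direction under any alternative. With the stricter filter (each array at a detection p under 0.01) CAR2 and CAR3 were no longer tested, so 1 lower probe was left, and probes such as Bsg and Slc9a2 could not be fitted there either. Across the array, 3519 probes (1908 higher, 1611 lower) were called with no filter, where 45281 probes were tested, against 5387 (2957 higher, 2430 lower) as reported. With each array left out in turn the count was 2559 to 5271 (1387 to 2859 higher, 1172 to 2412 lower), with 2559 without siDJ-1 replicate 1 and 2712 without siDJ-1 replicate 3. Of the other genes of proton and bicarbonate handling, 10 probes (5 higher) were called with no filter and 8 were lower with the stricter filter. An unmoderated t-test, which is not the test the paper names for the arrays, called 6 higher and 6 lower after Benjamini-Hochberg adjustment, and 13 and 7 at an unadjusted p under 0.05. With an array left out the calls were 8 to 17, with 5 to 12 higher and 3 to 7 lower. With an array left out, values that crossed 0 were those of Car11 (-0.0195 without scramble replicate 3 and -0.0132 without siDJ-1 replicate 1, up to 0.0946 without scramble replicate 1) and Atp6v1e1 (-0.0072 without scramble replicate 2, up to 0.0622 without scramble replicate 1), neither of which was called. Fewer arrays or more probes tested can lower the counts by construction, and the cause of the other changes was not tested. With the replicate number as a block, 7 of the other probes were called higher and 4350 probes in all. Deviations of arrays with the same number correlated at 0.054, 0.047 and 0.020, too weak to pair them, although every array correlated best with its own number, a hint from the data and not the design. Signals near background (CAR2, CAR3, the dimmer CAR12 probe, Car5b, Slc4a8, Slc26a6, Slc9a2, Bsg) limit how well the size of a difference is known.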
